A study of Rattus norvegicus with 12 samples.

Results

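The 4 libraries with the highest striatal marker levels were compared with the other 8 of a series of 12 rat prefrontal cortex libraries. Each library was poly(A) RNA of 1 WT animal in early adolescence. There were 3 groups of 4 animals: controls given saline, animals exposed to oxycodone after birth (postnatal, PNO) and animals exposed before birth (in utero, IUO). The dose of oxycodone, an agonist of opioid receptors, was 15 mg/kg by oral gavage, and dosing ended by postnatal day 21. Only 2 dams supplied the 4 animals of a group, 2 from each, and the dam of an animal is not given, so the animals may not be independent and the p-values too low. The sex of the animals is not labelled. Libraries were ranked by the mean of log2(FPKM + 0.5) over Drd2, Adora2a and Pde10a, where FPKM scales fragments by gene length and sequencing depth. The mean was 4.49 in PNO 2 and 3.92 in IUO 2, with 2.85 in IUO 1 and 2.34 in control 2, and these are called the striatal-marker libraries below. It lay between 1.02 and 1.498 in the other 8, where PNO 1 was nearest. The 4 libraries were thus 1 control, 1 PNO and 2 IUO animals.

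The striatum lies beneath the frontal cortex, and the white matter of the corpus callosum and external capsule runs between them. Its main cell is the medium spiny neuron, a GABA-releasing projection neuron that reads dopamine and glutamate. Direct-pathway cells carry the D1 dopamine receptor with substance P and dynorphin, and indirect-pathway cells carry the D2 dopamine receptor, an adenosine receptor encoded by Adora2a and enkephalin. Dopamine acts in both through cyclic AMP, which adenylate cyclase makes and phosphodiesterases break down. Cortical pyramidal neurons use glutamate and express few of these genes at striatal levels.

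Because expression itself chose the libraries, differences between the 4 and the 8 are given as values with no test. A gene is called higher or lower here when all 4 libraries lay above, or below, all 8 others in log2 CPM (counts scaled to library size) and the fitted log2 difference was at least 1 in size, a 2-fold difference. Of 14167 genes outside the rule, 31 were higher (0.219%) and 9 were lower (0.0635%). With no minimum size, 177 genes (1.25%) had all 4 libraries above the rest and 54 (0.381%) had all 4 below. Of the 31 higher genes, 15 were on the striatal lists, 1 was on the myelin list, 1 was on the cholinergic interneuron list and 14 were on no list. In tissue RNA, more cells of a type and more RNA per cell cannot be told apart. The count of 31 was 72 without control 2, the library nearest the other 8. It was 26 to 43 without any other single library.

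Total counts ran from 49227533 to 60672246 per library, with the lowest in IUO 2. The share of counts from mitochondrially encoded genes was 15.1% to 18.9%. Between libraries, Pearson's r across genes, which are not independent replicates, on log2 CPM was 0.973 to 0.983 within the 4 and 0.960 to 0.983 within the 8. Eif2s3y, a gene of the Y chromosome, was over 10 CPM in 1 striatal-marker library and in 4 others. Olfactory bulb markers were raised in PNO 1, PNO 3, PNO 4 and IUO 3, so these 4 are among the 8, and the remaining 4 (control 1, control 3, control 4 and IUO 4) had neither marker set raised.

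The rule genes, which are no evidence, measured as follows. Drd2, the D2 dopamine receptor gene, measured 75.8 CPM in PNO 2 and 49.9 in IUO 2, with 20.2 in IUO 1 and 15.9 in control 2, against 3.98 to 9.37 in the others. Adora2a, the adenosine receptor gene of indirect-pathway cells, measured 129, 89.8, 35.2 and 34.4 CPM in the same order, against 5.99 to 10.3. Pde10a, a phosphodiesterase of medium spiny neurons, measured 41.1, 25.6, 14.8 and 5.38 CPM, against 4.78 to 7.62. Pde10a in control 2 therefore lay within the range of the other 8, and a ranking by Pde10a alone put PNO 1 in its place. Rankings by Drd2 alone or Adora2a alone gave the same 4 libraries.

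**Figure D1:**
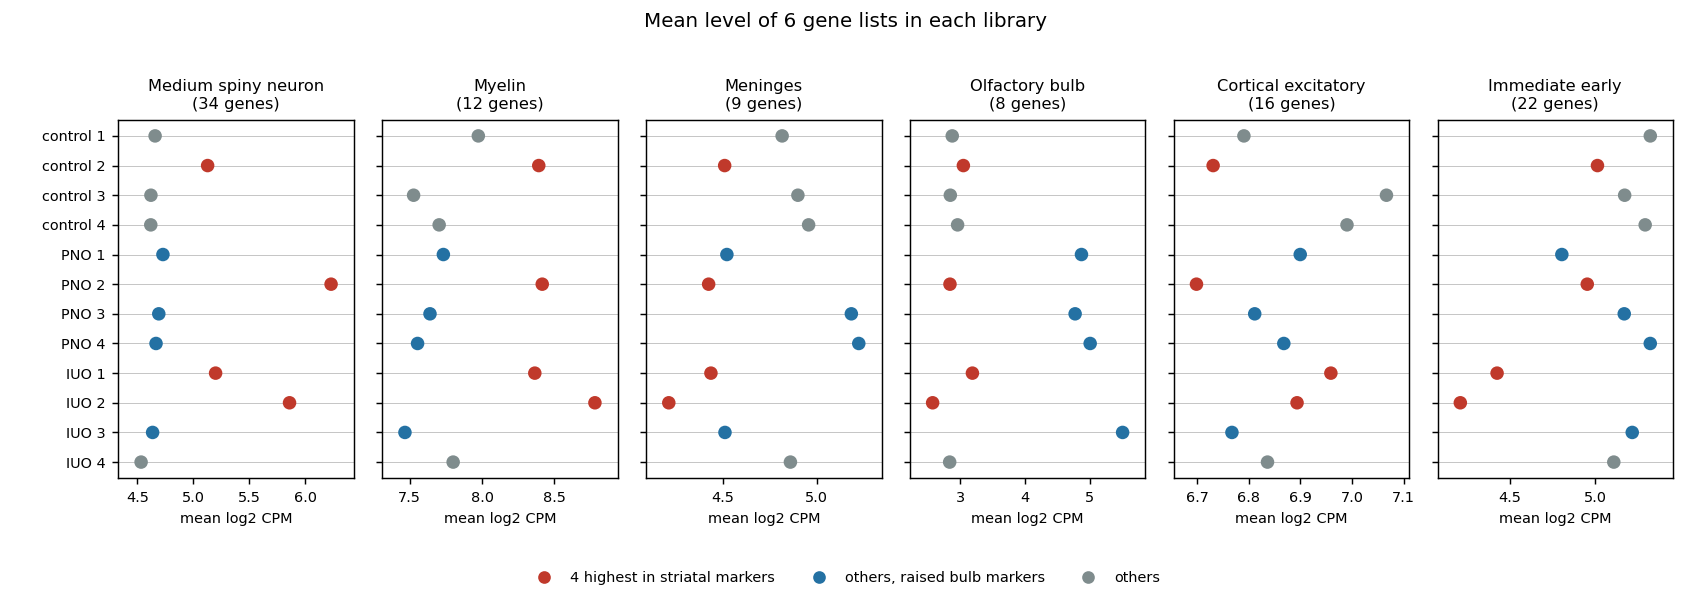
Each point is 1 library (y axis), in 6 panels of 1 gene list each, and the x axis is the mean log2 CPM over the members of a list that passed the filter. The 4 striatal-marker libraries (red) sit at 5.13 to 6.23 for the medium spiny neuron genes and 8.36 to 8.78 for the myelin genes, above the other 8 (blue, raised bulb markers, and grey, the rest) in those panels.

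A list of 34 medium spiny neuron receptors, signal transducers and peptides outside the rule had a median log2 difference of 0.97, beside -0.01 for all genes tested. Of the 34, 31 had a positive sign. All 4 libraries lay above the other 8 for 17, beside 1.25% of all genes tested. The call of higher went to 14, beside 0.219%. No member was below. Averaged over the list, log2 CPM was 6.23 in PNO 2 and 5.86 in IUO 2, with 5.20 in IUO 1 and 5.13 in control 2, and 4.53 to 4.73 in the other 8. The median was 0.64 without PNO 2. Only 2 of the 34 reached the filter through the 4 libraries alone, with a mean FPKM under 0.5 in the other 8.

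Promoters of 3 of these genes are shown because these genes were higher together in the 4 libraries and represent a receptor, a peptide and a signal regulator. They are RefSeq sequences of build GRCr8, 250 bases before to 50 after the gene start, 5′ to 3′ on the gene's strand, with capitals marking TGACG on either strand, the half-site of the cyclic AMP response element.
Gpr6: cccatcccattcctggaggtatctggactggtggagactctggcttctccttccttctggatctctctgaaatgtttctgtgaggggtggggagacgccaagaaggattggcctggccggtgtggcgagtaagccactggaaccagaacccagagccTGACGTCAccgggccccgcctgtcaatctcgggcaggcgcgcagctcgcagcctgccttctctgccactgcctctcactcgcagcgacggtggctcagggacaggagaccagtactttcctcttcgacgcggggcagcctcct
Tac1: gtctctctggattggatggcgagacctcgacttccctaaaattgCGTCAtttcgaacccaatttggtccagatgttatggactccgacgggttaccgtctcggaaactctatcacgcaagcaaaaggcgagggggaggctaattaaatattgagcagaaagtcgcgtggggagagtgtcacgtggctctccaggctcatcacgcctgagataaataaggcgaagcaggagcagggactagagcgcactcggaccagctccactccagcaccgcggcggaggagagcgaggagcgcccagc
Rgs9: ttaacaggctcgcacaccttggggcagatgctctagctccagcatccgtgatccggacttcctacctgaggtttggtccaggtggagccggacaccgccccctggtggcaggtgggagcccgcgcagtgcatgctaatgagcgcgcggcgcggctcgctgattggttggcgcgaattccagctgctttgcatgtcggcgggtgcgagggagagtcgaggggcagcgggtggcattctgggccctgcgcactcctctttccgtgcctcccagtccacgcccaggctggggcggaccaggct
The windows are chr20:46075202-46075501 on the minus strand for Gpr6, chr4:36645333-36645632 on the plus strand for Tac1 and chr10:94770338-94770637 on the minus strand for Rgs9. Of 18 striatal list genes with all 4 libraries above the rest, 13 had a promoter in the table, and 3 of the 13 held TGACG, against 21.2% of 33469 promoters. The full element TGACGTCA, a palindrome that holds the half-site on each strand, was in Gpr6 alone of the 13 and in 1.83% of promoters. For the 11 such myelin genes, 8 promoters matched and 3 held TGACG.

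Among receptors and channels, 5 of 13 genes had all 4 libraries above the rest, beside 1.25% of all genes tested. Of the 13, 4 were called higher, beside 0.219%. Drd1, the D1 dopamine receptor gene, measured 60.9 CPM in PNO 2 and 41.96 in IUO 2, with 16.6 in IUO 1 and 19.1 in control 2, against 6.78 to 10.2 in the other 8, a log2 difference of 2.16 (SE 0.26). Gpr6, an orphan receptor gene of indirect-pathway cells, measured 27.2, 21.2, 9.10 and 6.74 CPM in that order, against 1.78 to 3.99. The groups did not overlap for either gene, and PNO 2 was highest for both.

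Scn4b, a sodium channel beta subunit gene, measured 222 CPM in PNO 2 and 238 in IUO 2, with 106 in IUO 1 and 57.5 in control 2, against 27.4 to 43.9. Kcnab1, a potassium channel beta subunit gene, had all 4 libraries above the rest at a log2 difference of 0.66 (SE 0.11). Members of the list that cortex also expresses did not separate. Cnr1, the cannabinoid CB1 receptor gene, had a log2 difference of -0.14 (SE 0.09), Kcnj4, a potassium channel gene, 0.04 (SE 0.10), and the muscarinic M4 receptor gene Chrm4 0.25 (SE 0.18).

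Among signal transducers, 9 of 16 genes had all 4 libraries above the rest, beside 1.25% of all genes tested. Of the 16, 7 were called higher, beside 0.219%. Syndig1l, at chromosome 6, 104323424 to 104344891 on the minus strand in the deposited table, had the largest difference of any called gene, 3.24 (SE 0.34). It measured 66.5 CPM in PNO 2 and 47.2 in IUO 2, with 18.6 in IUO 1 and 12.5 in control 2, against 2.69 to 5.61 in the other 8. Rgs9, at chromosome 10, 94197054 to 94270892 on the minus strand, encodes a regulator that turns off G protein signals in the striatum. It measured 175, 121, 46.2 and 39.9 CPM, against 9.75 to 15.1, a log2 difference of 3.02 (SE 0.29). For Syndig1l and Rgs9 the lowest of the 4 libraries was more than 2-fold above the highest of the 8.

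Ppp1r1b encodes DARPP-32, a phosphatase inhibitor controlled by dopamine and cyclic AMP. It measured 880 CPM in PNO 2 and 706 in IUO 2, with 328 in IUO 1 and 333 in control 2, against 131 to 220 in the other 8, a log2 difference of 1.82 (SE 0.22). Adcy5, the main striatal adenylate cyclase gene, measured 338, 222, 140 and 122 CPM, against 74.2 to 109. Gnal, which encodes the G protein alpha subunit that links dopamine and adenosine receptors to Adcy5, measured 168, 99.7, 54.9 and 69.2 CPM, against 38.0 to 52.8. Each of these 3 genes was highest in PNO 2, with IUO 2 next.

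Rasgrp2 and Tmem158 were also called higher, at log2 differences of 1.27 (SE 0.21) and 1.38 (SE 0.23). The calcium-activated phosphodiesterase gene Pde1b (0.92, SE 0.18) and the striatal-enriched phosphatase gene Ptpn5 (0.75, SE 0.14) had all 4 libraries above the rest without reaching a 2-fold difference. Rasd2, a small GTPase gene, measured 486, 414 and 228 CPM in PNO 2, IUO 2 and IUO 1, but 169 CPM in control 2, within the 127 to 186 of the other 8. Arpp21 (0.26, SE 0.09), Itpr1 (0.28, SE 0.10) and Rgs14 (-0.02, SE 0.11) overlapped between the 4 and the 8.

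**Figure D2:**
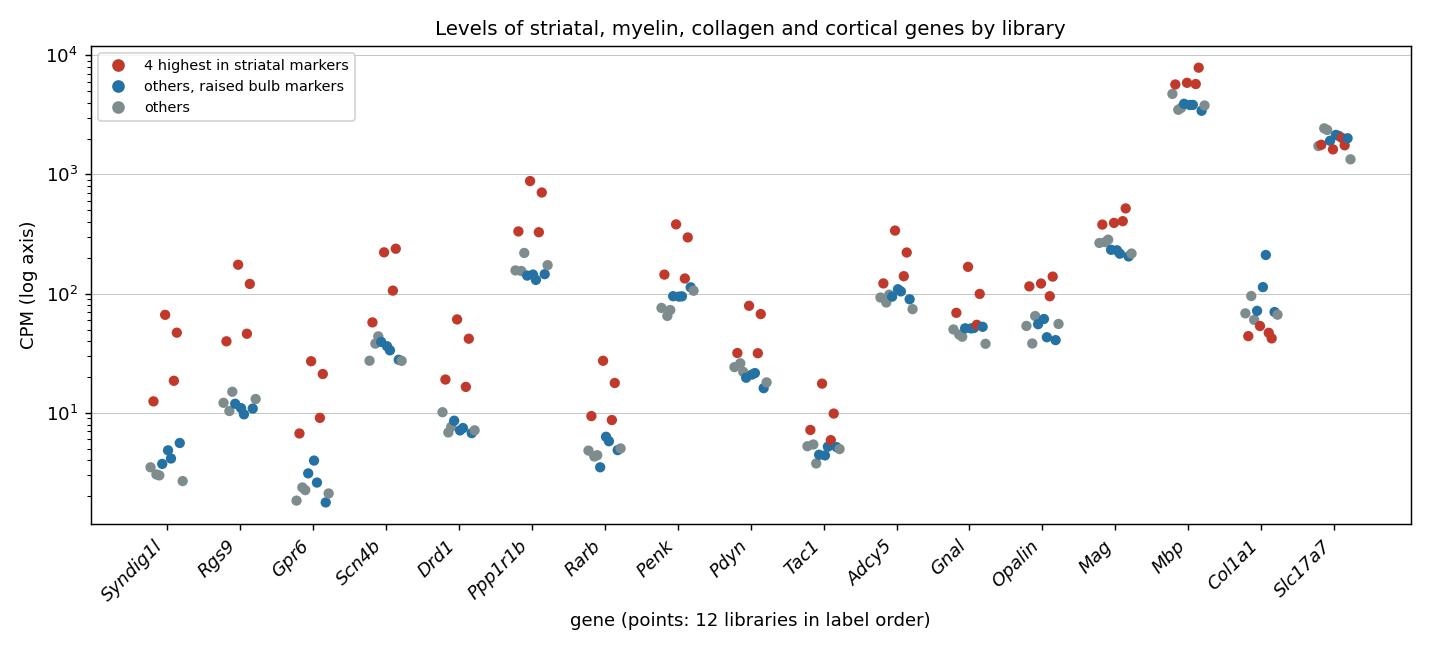
CPM on a log axis for 17 genes, with 1 point per library in label order; red marks the 4 striatal-marker libraries, blue the libraries with raised bulb markers and grey the rest. For Rgs9 the 4 red points lie at 39.9 to 175 CPM and the other 8 at 9.75 to 15.1, while for Slc17a7 the colours mix.

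Among striatal neuropeptides, 3 of 5 genes were called higher, beside 0.219% of all genes tested. Penk, the proenkephalin gene of indirect-pathway cells, measured 381 CPM in PNO 2 and 296 in IUO 2, with 134 in IUO 1 and 145 in control 2, against 65.2 to 113 in the other 8, a log2 difference of 1.41 (SE 0.23). Pdyn, the prodynorphin gene of direct-pathway cells, measured 79.2, 67.5, 31.7 and 31.8 CPM, against 16.2 to 26.1. Tac1, the substance P precursor gene, measured 17.6, 9.89, 5.92 and 7.21 CPM, against 3.78 to 5.45, so IUO 1 exceeded the highest other library by a small margin. The deposited label of this Tac1 entry is pseudogene.

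Nts and Cartpt, peptide genes of the ventral striatum, overlapped between the 4 and the 8. Nts measured 10.1 CPM in PNO 2 and 3.85 in IUO 2, with 1.53 in IUO 1 and 6.57 in control 2, against 1.13 to 3.61, and did not follow the order of the other striatal genes. Of 5 tested genes on a short ventral striatum list 0 separated, while 3 had a positive and 2 a negative sign, with a median of 0.31. Nts was at 1.26 (SE 0.41) and Cartpt at 0.31 (SE 0.29), with Wfs1 at -0.09 (SE 0.17) and Crym at -0.32 (SE 0.14). Of 3 dorsolateral striatum genes 0 separated, with 2 positive signs and a median of 0.25. Both lists hold genes that cortex also expresses.

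Of the genes outside the rule, 3 of 4 tested direct-pathway genes and 2 of 4 tested indirect-pathway genes were called higher. The share over all genes tested was 0.219%. On the scale set per gene length, the level of Penk was 274, 214, 97.9 and 105 FPKM in PNO 2, IUO 2, IUO 1 and control 2. The level of Tac1 was 17.2, 9.73, 5.88 and 7.15 FPKM, and that of Drd1 14.4, 10.01, 3.99 and 4.58 FPKM.

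Of 11 tested transcription factor genes of striatal projection neurons, 1 was called higher, beside 0.219% of all genes tested. Signs were positive for 6 of the 11 and negative for 5, with a median of 0.33. Rarb, a retinoic acid receptor gene of the striatum, measured 27.4 CPM in PNO 2 and 17.9 in IUO 2, with 8.73 in IUO 1 and 9.42 in control 2, against 3.51 to 6.32, a log2 difference of 1.70 (SE 0.25). Foxp1 (0.36, SE 0.12), Foxp2 (0.75, SE 0.21), Bcl11b (0.53, SE 0.13) and Zfp503 (0.75, SE 0.27) had positive signs with overlap. Dlx1 and Dlx2, factors of GABAergic neurons that the olfactory bulb also expresses, had negative signs, -0.75 (SE 0.31) and -0.80 (SE 0.46). The other 8 include the 4 libraries with raised bulb markers, at 17.4 to 23.4 FPKM for Dlx1 and 7.44 to 9.49 for Dlx2. The 4 others without raised bulb markers were at 7.45 to 8.67 and 1.41 to 3.57 FPKM. The striatal-marker libraries were at 6.23 to 9.23 and 2.51 to 4.15 FPKM. Meis2, also on the list, was at 16.2 to 16.9, 7.79 to 10.4 and 9.05 to 12.9 FPKM in that order of libraries. The part of the libraries with raised bulb markers in the negative signs was not tested.

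Cholinergic interneurons are a minor cell type of the striatum, and 5 of the 6 genes on their list that the table holds were below the filter. Lhx8, a transcription factor of these cells, was at 1.89 FPKM in PNO 2 and 0.901 in IUO 2, and at 0.122 FPKM in IUO 1 and 0.0906 in control 2, against 0 to 0.0343 in the other 8. Chat, which encodes the enzyme that makes acetylcholine, was at 1.42 FPKM in PNO 2 and 0.758 in IUO 2, against 0.0667 to 0.367 in the other 8, and at 0.222 FPKM in control 2. Isl1, a factor of direct-pathway and cholinergic neurons, was at 1.61 FPKM in PNO 2 and 0.722 in IUO 2 and at most 0.192 in every other library. The D3 dopamine receptor gene Drd3 was at 0.124 FPKM in PNO 2 and 0.0327 in IUO 2 and was listed at 0 in the other 10 libraries. For these weakly expressed genes PNO 2 and IUO 2 stood apart, while control 2 lay within the range of the other 8 for Chat and Isl1.

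Outside the lists, the called genes with the largest differences were Lrrc10b (2.00, SE 0.26) and Slc10a4 (1.65, SE 0.28). Slc10a4, a vesicle transporter gene of cholinergic and monoamine neurons, measured 9.54 CPM in PNO 2 and 5.94 in IUO 2, with 3.82 in IUO 1 and 2.65 in control 2, against 1.07 to 2.36. Ecel1, a neuronal endopeptidase gene on the cholinergic list, measured 26.0, 13.2, 8.72 and 9.14 CPM, against 3.49 to 7.58. Tmem88b was called higher at 1.33 (SE 0.18) and was highest in IUO 2, at 12.7 CPM.

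The excess of each gene over the mean of the other 8 libraries was expressed as a percent of its excess in PNO 2. Over the 18 striatal list genes with all 4 libraries above the rest, the median was 68.0% in IUO 2 (range 39.5% to 109%), 22.3% in IUO 1 (5.72% to 38.2%) and 18.03% in control 2 (11.7% to 32.4%). The rule genes were not used. Ppp1r1b stood at 75.9%, 23.5% and 24.2%, and Rgs9 at 66.8%, 21.1% and 17.2%. The 18 genes are those chosen for not overlapping, so the percentages describe how the 4 libraries differ and not whether they do. The order of IUO 1 and control 2 varied by gene, with Scn4b at 38.2% and 12.4% and Gnal at 5.72% and 17.6%.

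**Figure D3:**
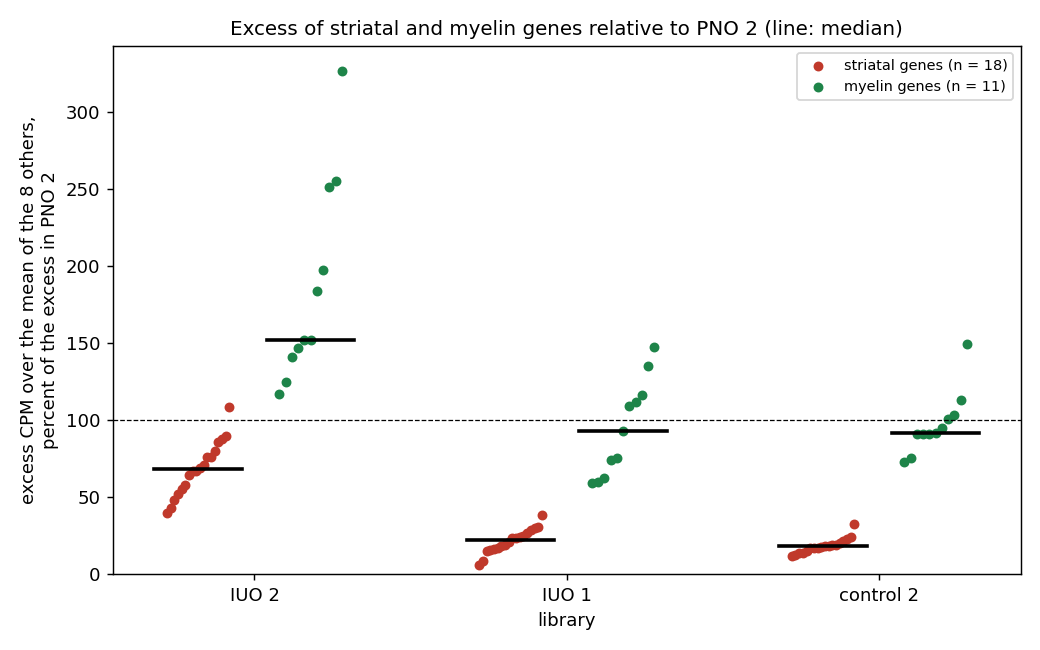
For IUO 2, IUO 1 and control 2, the y axis is a gene's excess CPM over the mean of the other 8 libraries as a percent of the same excess in PNO 2; each point is a gene and the bar is the median. Striatal genes have medians of 68.0%, 22.3% and 18.03% and myelin genes 152%, 93.1% and 91.7%.

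Myelin genes also separated the 4 libraries from the rest, with another order among the 4. Myelin is the membrane sheath that oligodendrocytes wrap around axons and is densest in white matter. Of 12 myelin and mature oligodendrocyte genes, 12 had a positive sign and 11 had all 4 libraries above the other 8, beside 1.25% of all genes tested. The median log2 difference was 0.82, and 1 member passed the 2-fold call. Averaged over the list, log2 CPM was 8.42 in PNO 2 and 8.78 in IUO 2, with 8.36 in IUO 1 and 8.39 in control 2, against 7.47 to 7.97 in the other 8. IUO 2 was highest, and PNO 2, IUO 1 and control 2 were almost level.

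Mbp, which encodes myelin basic protein, measured 5865 CPM in PNO 2 and 7855 in IUO 2, with 5725 in IUO 1 and 5680 in control 2, against 3420 to 4735 in the other 8, a log2 difference of 0.72 (SE 0.10). Opalin, an oligodendrocyte membrane glycoprotein gene, measured 122, 139, 95.3 and 115 CPM, against 38.3 to 65.0, a log2 difference of 1.19 (SE 0.14). The 4 libraries overlapped the rest only for Aspa, at 0.39 (SE 0.14).

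Mobp, Mag, Mog and Cnp lay between 0.81 and 0.82, Cldn11 at 0.76 (SE 0.08), Mal at 0.86 (SE 0.17), Ugt8 at 0.72 (SE 0.14) and Ermn at 0.98 (SE 0.14). Over the 11 genes that did not overlap, the median excess relative to PNO 2 was 152% in IUO 2 (range 117% to 327%), 93.1% in IUO 1 (59.4% to 147%) and 91.7% in control 2 (72.5% to 149%). None of the 11 was under 59.4% in IUO 1 or 72.5% in control 2, while no striatal gene of the 18 exceeded 38.2% in IUO 1 or 32.4% in control 2. No test of the difference between the 2 sets was made, since both were chosen on these libraries.

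Genes of the earlier oligodendrocyte lineage differed less. Of 8 precursor list genes 2 had all 4 libraries above the rest, beside 1.25% of all genes tested. These were the lineage factors Sox10 (0.47, SE 0.11) and Olig1 (0.39, SE 0.12), which mature oligodendrocytes also express. The precursor receptor gene Pdgfra was at 0.07 (SE 0.13). The myelin median was 0.69 against only the 4 other libraries without raised bulb markers and 0.81 with the exposure group as a term in the fit.

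Across the 177 genes with all 4 libraries above the rest, IUO 2 was the highest of the 4 for 97 genes and PNO 2 for 66. Control 2 was the highest for 9 and IUO 1 for 5. Control 2 was the lowest of the 4 for 88 genes and IUO 1 for 57. The libraries that led for striatal genes and for myelin genes therefore each led for a share of the wider set.

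**Figure D4:**
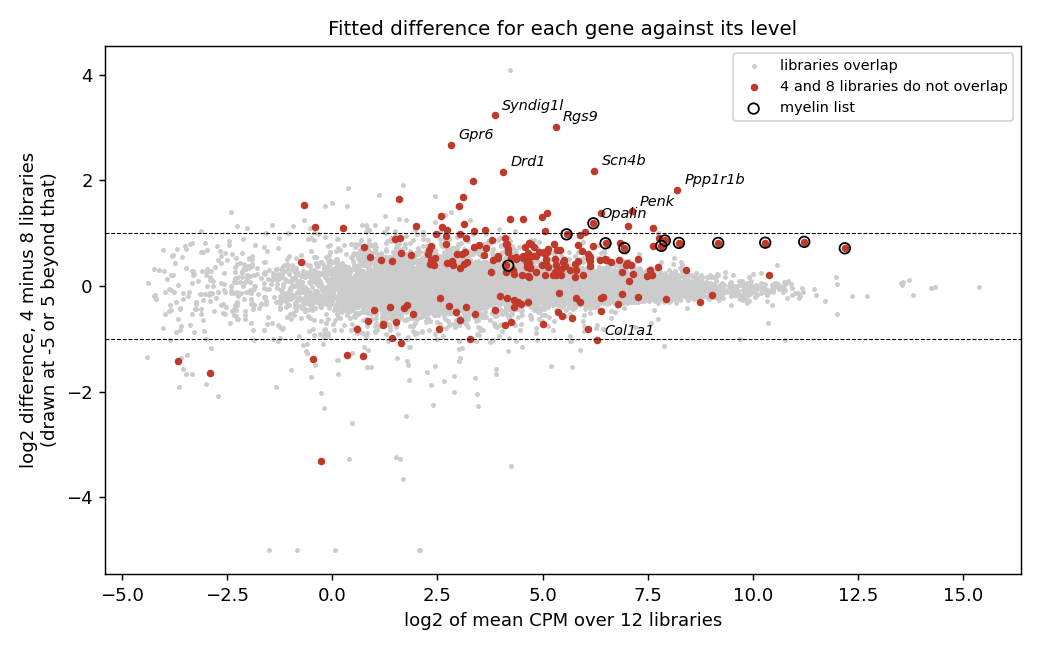
Each point is 1 of 14167 genes, with its mean CPM over 12 libraries on a log2 x axis and the fitted log2 difference of the 4 minus the 8 on the y axis; red genes have no overlap between the 4 and the 8, black rings mark the myelin list and dashed lines the 2-fold limits. Genes beyond the axis limit are drawn at it. Syndig1l (3.24) and Rgs9 (3.02) are the highest red points, and the myelin genes form a row near 0.82 at high levels.

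The meninges are the collagen-rich membranes over the cortex. Of 9 tested meningeal genes 9 had a negative sign, with a median of -0.47. Of these, 3 had all 4 libraries below the other 8, beside 0.381% of all genes tested, 1 was called lower and 6 overlapped. Col1a1, a chain of type I collagen, measured 53.6 CPM in PNO 2 and 42.2 in IUO 2, with 47.0 in IUO 1 and 44.1 in control 2, against 60.4 to 211 in the other 8, a log2 difference of -1.02 (SE 0.30). Col1a2 measured 47.5, 41.8, 49.8 and 40.1 CPM, against 61.1 to 135. Col3a1, a type III collagen gene, measured 41.7, 34.7, 42.7 and 34.4 CPM, against 44.5 to 79.0.

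The mean log2 CPM of the meningeal list was 4.21 to 4.51 in the 4 libraries and 4.51 to 5.22 in the other 8, so the nearest libraries, control 2 and IUO 3, were almost level. Dcn, a small proteoglycan gene of the meninges, was at -0.23 (SE 0.17) with overlap. Of the 9 genes called lower, Col1a1 was the only member of a list, 4 had a mean under 1 CPM, and the others included Itgb4 (-1.004, SE 0.18) and Msln (-1.07, SE 0.21). Itgb4, an integrin gene of epithelial-type attachment, measured 4.89 to 6.83 CPM in the 4 libraries and 7.54 to 15.2 in the 8. Msln, which encodes the mesothelial surface protein mesothelin, measured 1.19 to 2.29 CPM against 2.67 to 4.48. The count of 9 was 14 without control 1, 21 without control 2, 15 without control 4, 14 without PNO 2 and 22 without IUO 1.

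Markers of cortical excitatory neurons did not separate. Of 16 genes 10 had a negative and 6 a positive sign, with a median of -0.12 and 0 without overlap. Slc17a7, the main cortical vesicular glutamate transporter gene, measured 1623 CPM in PNO 2 and 1755 in IUO 2, with 2027 in IUO 1 and 1774 in control 2, against 1340 to 2435 in the other 8. Averaged over the list, log2 CPM was 6.70 to 6.96 in the 4 libraries and 6.77 to 7.07 in the other 8. Cortical markers in the 4 libraries were thus within or close to the range of the other 8. These values do not measure the share of cortex in a library. Upper-layer genes had a median of 0.00 over 8 genes and deep-layer genes -0.05 over 11. Tle4, a corepressor gene of deep-layer and striatal neurons, was the 1 layer gene without overlap, at 0.39 (SE 0.09). All 4 libraries lay above the rest for 1.25% of all genes tested.

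Genes of GABA synthesis and transport overlapped. Gad1, a GABA-synthesising enzyme gene, measured 187 to 259 CPM in the 4 libraries and 164 to 307 in the 8. Gad2 measured 28.4 CPM in PNO 2, 22.9 in IUO 2 and 16.4 in IUO 1, each above the 5.32 to 15.7 of the other 8, but 7.01 in control 2. The vesicular GABA transporter gene Slc32a1 measured 142, 119, 92.1 and 61.8 CPM, against 49.9 to 116. Gad1 was at 51.4 to 70.6 FPKM in the 4 striatal-marker libraries. It was at 45.2 to 57.3 FPKM in the 4 others without raised bulb markers and 70.5 to 84.0 in those with them. Slc32a1 was at 24.2 to 54.6, 19.5 to 36.7 and 37.1 to 44.8 FPKM in that order. The part of the libraries with raised bulb markers in the overlap was not tested. Interneuron subtype genes had a median of -0.08 over 10 genes, with 0 without overlap.

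Immediate early genes, the rapid transcriptional response to neuronal activity, had a negative sign in 20 of 22 members, with a median of -0.53 and 0 without overlap. As a mean of log2 CPM, the list stood at 4.42 for IUO 1 and 4.21 for IUO 2, against 4.95 for PNO 2, 5.01 for control 2 and 4.80 to 5.32 in the other 8. Arc, a synaptic plasticity gene, measured 51.5 CPM in IUO 1 and 39.8 in IUO 2, but 189 in PNO 2 and 243 in control 2, within the 175 to 391 of the other 8. Fos measured 8.03 and 5.70 CPM in IUO 1 and IUO 2, against 14.5 to 32.7 in the other 8, and 16.6 and 17.5 CPM in PNO 2 and control 2. The low values were those of the 2 IUO animals and did not follow the striatal order, in which PNO 2 came first.

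Of the other cell types, claustrum and deep insula genes had a median of 0.57, with 4 of 5 positive. Lxn, at 0.65 (SE 0.13), was the 1 with all 4 libraries above the rest, beside 1.25% of all genes tested. The mean log2 CPM of this list was 4.67 to 5.03 in the 4 libraries and 3.89 to 4.72 in the other 8, which overlap. Septum genes had 6 of 6 negative signs with a median of -0.27, and thalamus genes had a median of 0.08 over 4, with 0 without overlap in either. Bulb genes had a median of -1.70 with 0 without overlap. Their mean log2 CPM was 2.57 to 3.19 in the 4 libraries, 2.83 to 2.96 in the 4 other libraries without raised bulb markers and 4.77 to 5.51 in those with raised bulb markers. For septum genes the mean was 2.39 to 2.67, 2.40 to 2.70 and 2.81 to 3.05 in the same order of libraries. Astrocyte genes had a median of 0.02 over 10, endothelium and pericyte genes 0.07 over 9 and microglia genes -0.28 over 10, with 0 members without overlap in each. Blood genes had a median of -0.82 over 5 and neuroblast genes -0.42 over 6, likewise with 0 without overlap. The mean log2 CPM of neuroblast genes was 2.56 to 3.12, 2.60 to 2.96 and 3.62 to 3.87 in the order given for bulb genes. Dopamine neuron genes had a median of -0.10 over 3, with 0 without overlap. Mitochondrially encoded genes had a median of 0.01 over 13.

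Ttr, the transthyretin gene of choroid plexus, had the largest fitted difference among list genes, 4.09 (SE 1.46), from IUO 2 alone. It measured 199 CPM in IUO 2 and 0.252 to 1.60 CPM in the other striatal-marker libraries, against 0 to 17.5 in the 8. PNO 2, IUO 1 and control 2 all lay within the range of the 8.

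The exposure comparisons, the design of the study, asked what either exposure left in the prefrontal cortex, and they were fitted with and without the 4 libraries. The mean log2 CPM of the 34 medium spiny neuron genes was 5.08 ± 0.77 in PNO, 5.06 ± 0.61 in IUO and 4.76 ± 0.25 in control (SD, n = 4 each). By the exact permutation test, two-sided and adjusted over 3 pairs, PNO and control did not differ beyond the spread between animals (difference 0.32, p = 0.457, adjusted p = 0.814). IUO and control gave a difference of 0.30 (exact permutation p = 0.543, adjusted p = 0.814) and IUO and PNO -0.02 (exact permutation p = 0.943, adjusted p = 0.943). The smallest p that 4 against 4 allows is 0.0286. The difference between PNO and control was -0.06 without PNO 2.

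With all 12 libraries the 34 genes had a median log2 fold change of 0.51 in PNO against control, with 31 positive, and 0.33 in IUO against control, with 29 positive. Without the 4 libraries the medians were -0.02, with 15 positive, and -0.06, with 11 positive. The 4 were chosen by related genes, so this drop restates the choice of libraries and is not a separate result. None of the 34 was among the genes that edgeR called in either fit, which are given below. For Rgs9 the log2 fold change in PNO went from 1.42 with 12 libraries (adjusted p = 0.605, edgeR) to -0.20 with 8 (adjusted p = 0.852, edgeR). The myelin list went from 0.26 to -0.15 in IUO against control.

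**Figure D5:**
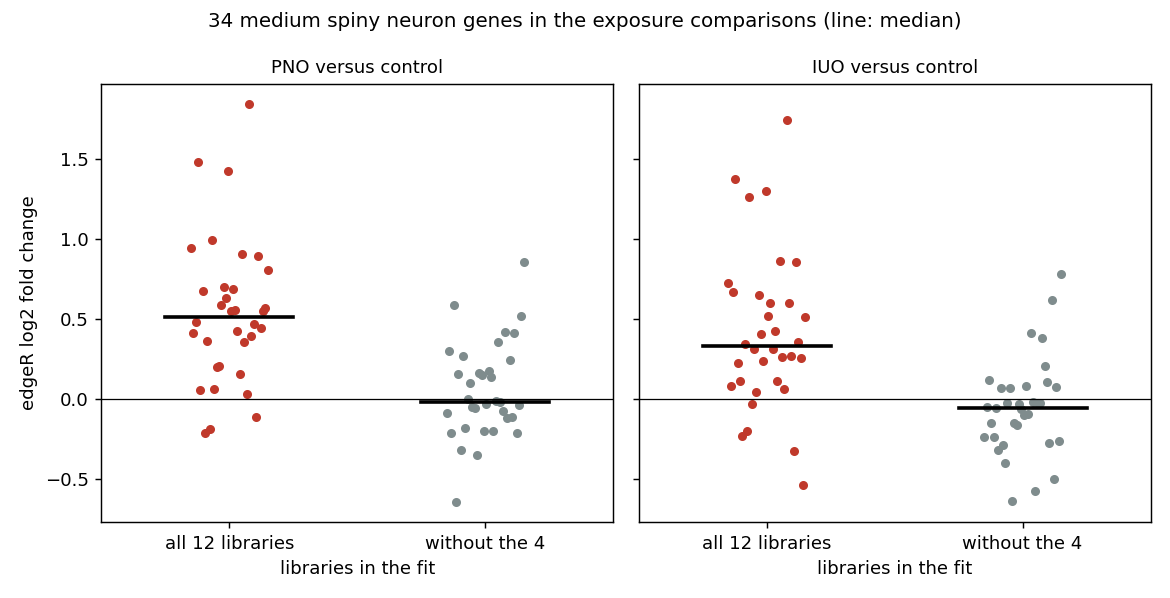
The y axis is the edgeR log2 fold change of each of 34 medium spiny neuron genes in PNO or IUO against control, fitted with all 12 libraries (red) or without the 4 striatal-marker libraries (grey), with the median as a bar. The medians are 0.51 and -0.02 for PNO and 0.33 and -0.06 for IUO. The 4 were chosen by related genes, so the drop restates that choice.

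The opioid peptide genes Penk and Pdyn did not pass the edgeR test among the 8 remaining libraries and are given as values, singled out after these were seen. Penk measured 76.0, 65.2 and 73.0 CPM in control 1, control 3 and control 4, 95.4, 94.6 and 95.1 CPM in PNO 1, PNO 3 and PNO 4, and 113 and 106 CPM in IUO 3 and IUO 4. The 3 groups did not overlap, with IUO highest and control lowest, as for 0.254% of the 14170 genes. The log2 fold change against control was 0.41 in PNO (adjusted p = 0.444) and 0.62 in IUO (adjusted p = 0.322) by edgeR. Pdyn measured 24.2, 26.1 and 22.1 CPM in the same controls, 19.8, 21.02 and 21.6 CPM in PNO and 16.2 and 18.1 CPM in IUO. The groups did not overlap for Pdyn either, here with control highest and IUO lowest, as for 0.155% of genes, at log2 fold changes of -0.22 in PNO (edgeR adjusted p = 0.761) and -0.50 in IUO (edgeR adjusted p = 0.658). The 3 PNO libraries and IUO 3 are those with raised bulb markers, and their part in these values was not tested.

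The kappa opioid receptor gene Oprk1, below the filter, was at 1.22 FPKM in PNO 2 and 0.935 in IUO 2, with 0.316 in IUO 1 and 0.595 in control 2, against 0.1001 to 0.395 in the other 8. The mu opioid receptor gene Oprm1 was at 0.0576 FPKM or less in each of the 12 libraries.

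With 12 libraries edgeR called 0 of 14170 genes (0%) in each exposure comparison, with 1564 genes at an unadjusted p under 0.05 in PNO against control, 570 in IUO against control and 953 in IUO against PNO. DESeq2 called 117, 11 and 8. Without the 4 libraries edgeR called 0 in PNO against control (945 at an unadjusted p under 0.05), 4 in IUO against control and 3 in IUO against PNO, where IUO was left with 2 animals. Zwint, a kinetochore gene that neurons also express, measured 1307 and 1351 CPM in IUO 3 and IUO 4, against 2515 to 2741 in the 3 controls and 2569 to 2654 in PNO (edgeR adjusted p = 0.0193 and 0.0222). It measured 1301 CPM in IUO 1 but 2279 in IUO 2.

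The genes called in both IUO comparisons also included Ppial4d and an unnamed gene, ENSRNOG00000066636. Their values were alike at 32.6 to 43.0 CPM in 10 libraries. In IUO 3 and IUO 4 the unnamed gene was at 0 and Ppial4d at 94.9 and 107 CPM, so how reads were divided between these 2 genes is uncertain.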

How the data were processed

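Prefrontal cortex mRNA libraries of 12 rats were analysed. The authors named HISAT2 and StringTie, per the submitters' processing notes; for versions, settings, genome build and annotation the sources used here give nothing. Per the file headers, the deposited table gives whole-number counts and FPKM for 22431 genes, and gene positions are as printed there. The ranking of the libraries used FPKM with a pseudocount of 0.5.

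The filter kept the 14170 genes whose FPKM averaged 0.5 or more across the 12 libraries. Counts were scaled with TMM factors, log2 CPM used a prior count of 2, and log2 differences and SE come from edgeR's quasi-likelihood fit. The exposure comparisons used that test in 1 model of 3 groups with Benjamini-Hochberg adjustment. The code was tested on simulated data. Named genes were list members, up to 15 called genes in each direction with a mean of at least 1 CPM, and genes called between exposures. The members and lists were chosen with earlier results of these data known. List genes absent from the table were not analysed here, and a few genes are not reported here. Software was edgeR 4.0.16, DESeq2 1.42.0 and limma 3.58.1 in R 4.3.3, with figures drawn by matplotlib 3.10.9 in Python 3.11.15.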

Additional observations from a re-analysis of the deposited data

Results flagged for a closer look

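Samples far from the other 3 of their exposure group were sought in 72 groups, 3 for each of 24 gene lists, and 7 were found. By its definition the limit used, Dixon's critical value, flags about 1 in 20 independent groups by chance, a rate not measured here, and these lists share genes and libraries. For the medium spiny neuron genes, PNO 2 had a mean log2 CPM of 6.23 against 4.67 to 4.73 in the other PNO libraries, and control 2 had 5.13 against 4.62 to 4.66 in the other controls. Both are in the set because of related genes, so this restates the choice of libraries. Control 2 also stood apart for Ecel1, the only cholinergic list gene that passed the filter, at 3.2 against 2.32 to 2.4. PNO 2 had lower bulb genes, 2.84 against 4.77 to 5.01, and lower neuroblast genes, 3.12 against 3.62 to 3.7, than the other PNO libraries, each of which had raised bulb markers. Astrocyte genes were at 6.72 in IUO 1 against 6.59 to 6.61 in the other IUO libraries. Septum genes were at 2.4 in control 4, which is not a striatal-marker library, against 2.65 to 2.7 in the other controls.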

How the results depend on the processing

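Of 31 genes higher and 9 lower, log2(FPKM + 1) left 14 and 1, log2(FPKM + 0.5) left 1 lower and log2(FPKM + 0.1) left 5 lower. Without the FPKM filter there were 57 and 16, with a mean FPKM of at least 2 there was 1 lower, with no minimum size 177 and 54, and with a log2 difference of at least 2 there were 5 and 1. Against only the 4 others without raised bulb markers the counts were 61 and 29, and with the libraries ranked by Pde10a alone, 68 were higher. The medium spiny neuron median of 0.97 was 0.87, 0.88 and 0.81 for log2(FPKM + 0.5), (FPKM + 0.1) and (FPKM + 1), 1.03 with a mean FPKM of at least 2 and 0.82 under the Pde10a ranking, where the myelin median was 0.57.

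With the replicate number as a block, 12 genes were higher, the medium spiny neuron median was 0.42, the myelin median 0.51 and the cortical excitatory neuron median 0.12, reversed from -0.12. The set holds 3 libraries with the number 2. The labels do not tie a number to a litter, so the numbers were not taken as a pairing. Deviations from group means were positively correlated in all 12 same-numbered pairs, at 0.0153 to 0.4114, with 4 above 0.1. Pairs with different numbers ran from -0.3016 (PNO 3 and IUO 2) to 0.2027 (PNO 3 and IUO 4). A link between libraries of the same number was not tested.

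Leaving out 1 library gave 26 to 72 genes higher, 7 to 22 lower, and medians of 0.64 to 1.12 for medium spiny neuron, 0.72 to 0.86 for myelin, -0.18 to -0.03 for excitatory, -0.61 to -0.44 for immediate early and -0.56 to -0.39 for meningeal genes. The exposure calls of 0 were 117, 11 and 8 with DESeq2 for PNO against control, IUO against control and IUO against PNO, 1 with limma on log2(FPKM + 0.5) in PNO against control, and 4 and 3 for the IUO comparisons without the 4 libraries. Leaving out 1 library they were 0 to 19 (19 without IUO 4), 0 to 1 and 0 to 1. The striatal score difference was -0.06 to 0.46 for PNO minus control (reversed to -0.061 without PNO 2), 0.03 to 0.48 for IUO minus control and -0.29 to 0.36 for IUO minus PNO, reversed to 0.36 without PNO 2, 0.12 without IUO 3 and 0.15 without IUO 4. The cause of these shifts was not tested. Among 2221 values of 86 named genes under the alternatives, 0 reversed and 99 moved. The myelin and meningeal medians were added after seeing the data.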
